A study of Drosophila melanogaster with 27 samples.

Results

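The DNA replication and S-phase genes described here are a set of 36 Drosophila melanogaster genes, chosen by name for the machinery that copies chromosomal DNA. A spot on the arrays counted as a probe of a gene where its identifier was the gene's CG number, with or without suffix letters, or its symbol. All 36 of 36 genes had a probe, 43 of the 16487 probes measured, and for Orc2, Psf1 and CycE, which had 3, 3 and 4 probes, the probe with the highest mean intensity over all arrays stood for the gene. Each value is a normalised log2 ratio of test RNA over reference RNA on that probe, so that 0 means an equal signal in both, 1 a doubling in the test RNA and -1 a halving. A brightness difference between probes says nothing of the order of the transcripts, so each gene was compared only with itself.

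The study compared eye-antennal imaginal discs of wandering larvae, at the end of larval life, on 27 two-colour arrays, in which each test RNA was hybridised beside RNA from whole eye-antennal discs of the eye-colour mutant w1118, whose eyes otherwise form normally. The 9 test conditions were posterior eye disc fragments of w1118, cut off along the morphogenetic furrow (4 arrays), discs of rough Dominant (roDom) homozygotes (3) and heterozygotes (2), of the enhancer mutant E(roDom)2033 as homozygotes (3) and heterozygotes (2), of atonal1 (ato1) homozygotes (3), of hedgehog1 (hh1) homozygotes (4), of the rough mutant roX63 (3) and of the suppressor mutant Su(roDom)519 (3). The labels describe the furrow as stopping in roDom, E(roDom)2033, ato1 and hh1, mildly so in E(roDom)2033 heterozygotes, and describe extra R8 photoreceptors in roX63 and Su(roDom)519, so the homozygous roDom, E(roDom)2033, ato1 and hh1 discs are called stop-furrow discs here (13 arrays) and roX63 with Su(roDom)519 extra-R8 discs (6). The labels call E(roDom)2033 uncharacterised, and every mutant affects the whole animal, so no change in a disc is tied to 1 cell type. Each test sample came from a few pooled discs and its RNA was amplified in 2 rounds, while the reference was amplified in 1 round, so in a comparison with the reference the condition and the round of amplification cannot be told apart. Comparisons between conditions cancel the reference. For E(roDom)2033 homozygotes the titles were used, but the characteristics of replicates 2 and 3 call the larvae heterozygous. Replicate 2 of the roDom heterozygotes carries no zygosity in its source name.

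DNA replication starts with licensing: the origin recognition complex (Orc1 to Orc6) binds origins and, with Cdt1 (dup in flies), loads the ring helicase made of Mcm2 to Mcm7, while geminin blocks Cdt1 once S phase has begun. Cdc45 and the GINS complex (Sld5, Psf1, Psf2, Psf3) then switch the helicase on, polymerase alpha with primase lays down primers, polymerases epsilon and delta extend them with the sliding clamp PCNA, and ribonucleotide reductase and thymidylate synthase supply the nucleotides. Entry into S phase depends on Cyclin E and the transcription factor E2f1, which drives many of these genes, and is held back by dacapo (dap), the fly inhibitor of Cyclin E kinase. In the eye disc, cells ahead of the furrow divide without a fixed order, cells in the furrow are held in G1, and behind it the cells outside the first photoreceptor clusters pass through a last synchronous S phase, the second mitotic wave, while differentiating photoreceptors leave the cycle.

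The arrays differed in quality and fell on 9 days of scanning, 4 of which held 1 array each. Their titles begin with 5th, 6th or 7th, called the array series here. The 5th held roDom homozygote replicates 1 and 2 and hh1 replicate 1, and the 6th posterior replicate 1. All other arrays were of the 7th, so series and condition overlap in part. Replicate 1 of the posterior fragments stood apart: 58.1% of its spots were not found by the scanner software, against 3.51% to 26.7% on the other 26 arrays, and 48.6% of its probes were above background, against 67.3% to 95.4%. A single day held 5 arrays, namely E(roDom)2033 homozygote replicates 1 and 3, ato1 replicate 2 and hh1 replicates 2 and 4. Of 16 measured photoreceptor and neuronal markers, 4 passed the test as higher in posterior fragments than in the reference and 0 as lower. In E(roDom)2033 homozygotes 0 passed as higher and 8 as lower. Of all probes, 2.75% were higher and 1.97% lower in posterior fragments, and 7.31% and 6.45% in E(roDom)2033 homozygotes. No label says that the arrays of a condition hold separate collections of discs, so the p-values measure the spread between these arrays, which may be technical.

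**Figure D1:**
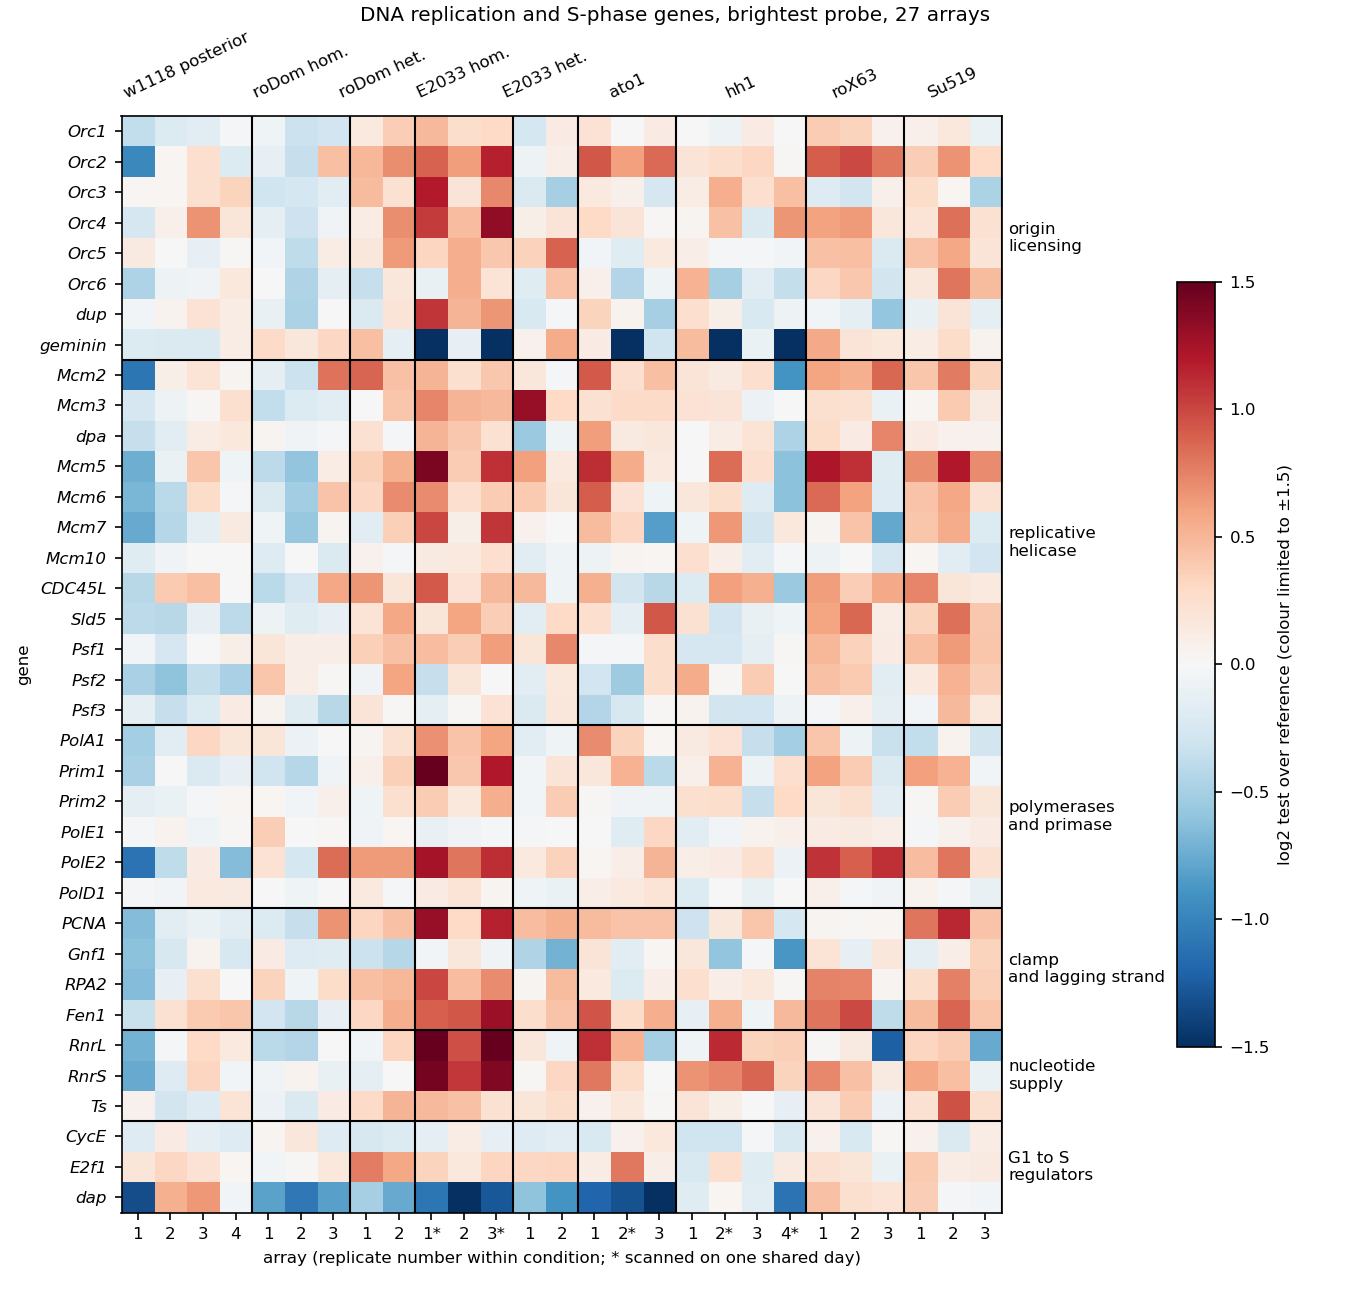
Normalised log2 test over reference of the 36 genes (rows, by role) on each of the 27 arrays (columns, by condition); red is higher in the test RNA, blue lower, and the colour is limited to ±1.5. The E(roDom)2033 homozygotes hold the most red, dap is blue on all roDom, E(roDom)2033 and ato1 arrays, and geminin is dark blue on the 5 starred arrays alone, which were scanned on a shared day.

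All 36 genes gave a value on all 27 arrays, and 25 or more arrays were above background in at least 1 channel for 29 of them. The dimmest signals were those of PolE1, the catalytic subunit of polymerase epsilon, above background on 17 arrays, and of Mcm10, a factor that helps to start the helicase, on 19. The other 5 genes below 25 arrays were Orc1, Orc3, Orc5, Mcm3 and Psf3, with 23 or 24 arrays each. A call below is an adjusted p under 0.05, from a moderated linear model over all probes with a term for the dye of the test RNA and Benjamini-Hochberg adjustment over all 16487 probes within each comparison. A fitted value is given with its standard error.

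Across the 9 conditions, 13 of the 36 genes differed by the moderated F test (36.1%), and 13.8% of all probes did. All probes include dim ones, and with those left out 13 genes were called beside 14.8% of probes. With every spot of negative score left out 13 of 31 testable genes were called, beside 21.7% of probes. In the value table deposited by the authors 10 of 23 were called, beside 27.6%. In order of p they were Psf1, PolE2, RnrS, dap, Orc2, Orc3, Orc1, PCNA, Psf2, Mcm3, Sld5, dup and Prim1, with adjusted p from 0.00175 for Psf1 to 0.0409 for Prim1. By role these were 4 of 8 licensing genes, 4 of 12 helicase genes, 2 of 6 polymerase and primase genes, 1 of 4 clamp and lagging strand genes, 1 of 3 nucleotide supply genes and 1 of 3 regulators. The dimmest probes of Psf1 and Orc2 did not pass this F test (adjusted p = 0.367 and 0.441). Their probes of middle brightness did (adjusted p = 0.000981 and 0.0104). Without E(roDom)2033 homozygote replicate 1 the count was 8, and without the 5 arrays of the shared day it was 5.

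The median of the 36 genes set the E(roDom)2033 homozygotes apart from the other stop-furrow discs. On single arrays this median was 0.51, 0.33 and 0.45 in E(roDom)2033 homozygotes, -0.06, -0.24 and 0.00 in roDom homozygotes, 0.18, 0.08 and 0.06 in ato1 and 0.10, 0.11, -0.04 and -0.03 in hh1. It was 0.16 and 0.36 in roDom heterozygotes, 0.00 and 0.16 in E(roDom)2033 heterozygotes, 0.40, 0.34 and -0.02 in roX63 and 0.27, 0.47 and 0.15 in Su(roDom)519. In posterior fragments it was -0.38, -0.09, 0.08 and 0.02. The 3 E(roDom)2033 homozygote arrays lay above all 10 other stop-furrow arrays and above the 4 posterior arrays, but overlapped with the arrays of roX63, Su(roDom)519 and roDom heterozygotes. The median of all probes lay between -0.0057 and 0.0055 on every array.

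**Figure D2:**
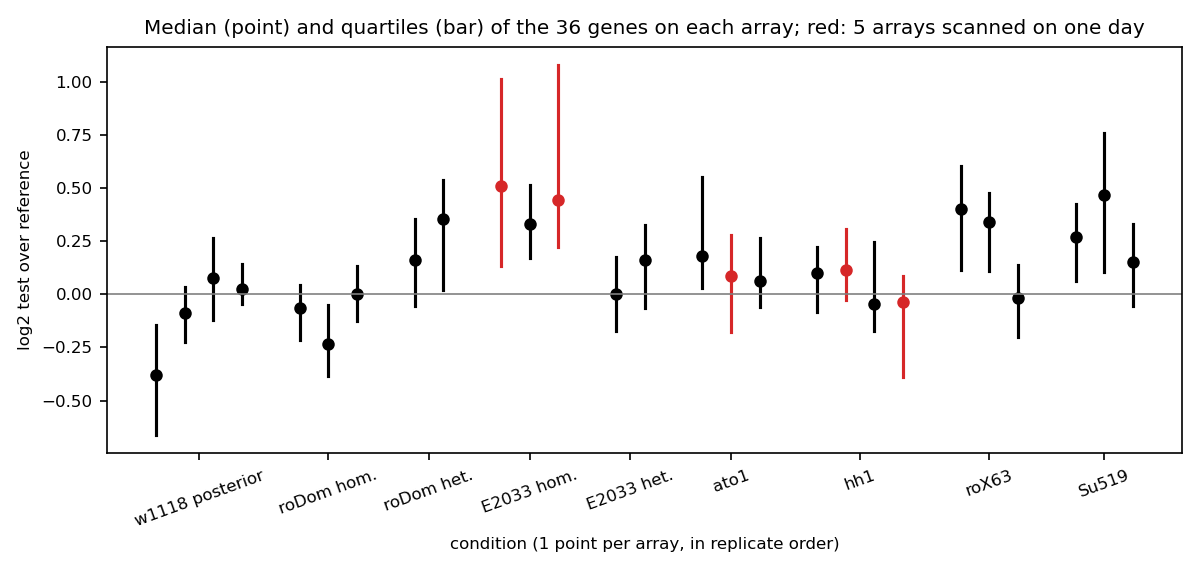
Median (point) and lower and upper quartile (bar) of log2 test over reference over the 36 genes, for each of the 27 arrays in 9 conditions; red marks the 5 arrays scanned on a shared day. The E(roDom)2033 homozygotes lie between 0.33 and 0.51, and the 3 other red arrays between -0.03 and 0.11.

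In E(roDom)2033 homozygotes 21 of the 36 genes were higher than in the reference and 2 were lower, where 7.31% of all probes were higher and 6.45% lower. The fitted median of the 36 genes was 0.44, and that of all probes was -0.001. By role, the higher genes were 6 of 8 licensing genes, 5 of 12 helicase genes, 4 of 6 polymerase and primase genes, 3 of 4 clamp and lagging strand genes and all 3 nucleotide supply genes. None of the 3 regulators was higher. In the same discs 8 of 16 photoreceptor and neuronal markers were lower and 0 higher, so tissue makeup moved with the result. Its part in the result was not tested.

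The highest fitted values were those of both ribonucleotide reductase subunits. RnrL, the large subunit of ribonucleotide reductase, read 1.70, 0.97 and 1.90 on the 3 arrays (fitted 1.54 ± 0.30, adjusted p = 0.00165). RnrS, its small subunit, read 1.44, 1.06 and 1.39 (1.31 ± 0.17, adjusted p = 2.9e-05). On the 10 other stop-furrow arrays RnrS lay between -0.11 and 0.87, without overlap, whereas RnrL reached 1.12 there and overlapped. Thymidylate synthase (Ts) was higher by 0.37 ± 0.12.

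Among the genes of the moving fork, Prim1, the catalytic primase subunit, read 1.65, 0.40 and 1.20 (1.10 ± 0.20, adjusted p = 0.000848). PolE2, the second subunit of polymerase epsilon, read 1.25, 0.80 and 1.11 (1.06 ± 0.18, adjusted p = 0.000553). Replicate 2 was the lowest of the 3 arrays for both. PCNA, the sliding clamp, read 1.31, 0.29 and 1.16 (0.94 ± 0.18, adjusted p = 0.00179), and Fen1, the nuclease that trims lagging strand fragments, read 0.90, 0.93 and 1.28 (0.99 ± 0.18, adjusted p = 0.000916). For PCNA, replicate 2 lay within the range of the other stop-furrow arrays (-0.35 to 0.67), and replicates 1 and 3 lay above it. PolA1, Prim2 and RPA2, a subunit of the single-strand binding protein, were also called.

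Of the licensing genes, Orc4 read 1.05, 0.46 and 1.33 (0.91 ± 0.18, adjusted p = 0.00146), and Orc1, Orc2, Orc3, Orc5 and dup were called too. Of the helicase genes, Mcm5 read 1.42, 0.38 and 1.09 (0.99 ± 0.28, adjusted p = 0.0205), and Mcm3, dpa (the fly Mcm4), CDC45L (Cdc45) and Psf1 were called. Besides RnrL, RnrS, Prim1, PolE2, Mcm5, Fen1, PCNA and Orc4, the other 13 higher genes, Ts among them, had fitted values from 0.33 (Prim2 and Orc1) to 0.89 (Orc2). The other Orc2 probes read 0.72 and 0.25, both called, and the other Psf1 probes 0.67 and 0.40, both called, beside 0.45 for the brightest.

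The 13 genes that did not pass were Orc6, Mcm2, Mcm6, Mcm7, Mcm10, Sld5, Psf2, Psf3, PolE1, PolD1, Gnf1 (the large subunit of the clamp loader), CycE and E2f1. Their fitted values ran from -0.10 (Psf2) to 0.71 (Mcm7, adjusted p = 0.0745). The helicase ring was called for Mcm3, dpa and Mcm5, while Mcm2 (0.43, adjusted p = 0.233) and Mcm6 (0.46, adjusted p = 0.188) missed the threshold.

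The 2 lower genes were dap (-1.25 ± 0.24, adjusted p = 0.00139) and geminin (-1.34 ± 0.42, adjusted p = 0.0402), both inhibitors, of Cyclin E kinase and of licensing. For dap all 3 arrays were low (-1.08, -1.54 and -1.27). For geminin they split: -2.17 and -1.66 on replicates 1 and 3, and -0.12 on replicate 2. The same drop in geminin was present on the other 3 arrays of that day of scanning, at -2.30 in ato1 replicate 2 and at -2.08 and -1.78 in hh1 replicates 2 and 4. The 22 other arrays read between -0.30 and 0.56. No other member lay lower on all 5 of these arrays than on each of the 22 others, and 113 of 16481 probes (0.686%) did. With the day as a fixed block geminin was fitted at -0.15 (adjusted p = 0.784) in E(roDom)2033 homozygotes. The 5 arrays span 3 genotypes, and the other arrays of those genotypes were among the 22.

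Because 2 of the 3 E(roDom)2033 homozygote arrays were scanned on that day, the other genes were also compared within it. There the 2 arrays lay above the ato1 array and both hh1 arrays for 27 of the 36 genes and below them for 0, with 9 overlapping, whereas 11.8% of all probes lay above and 10.2% below. The median within-day difference over the 36 genes was 0.55. The largest were PolE2 (1.14), RnrL (1.13), PCNA (1.12), Prim1 (1.00), Mcm5 (1.00) and RnrS (0.97). Those that overlapped were geminin, CDC45L, Psf2, Psf3, PolE1, PolD1, CycE, E2f1 and dap. The remaining homozygote array, replicate 2, shared a day with hh1 replicate 3 and lay above it for 28 of the 36 genes and below it for 8, where 50.5% of probes lay above and 49.5% below, with a median difference of 0.32. PCNA and dap were among the 8.

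**Figure D3:**
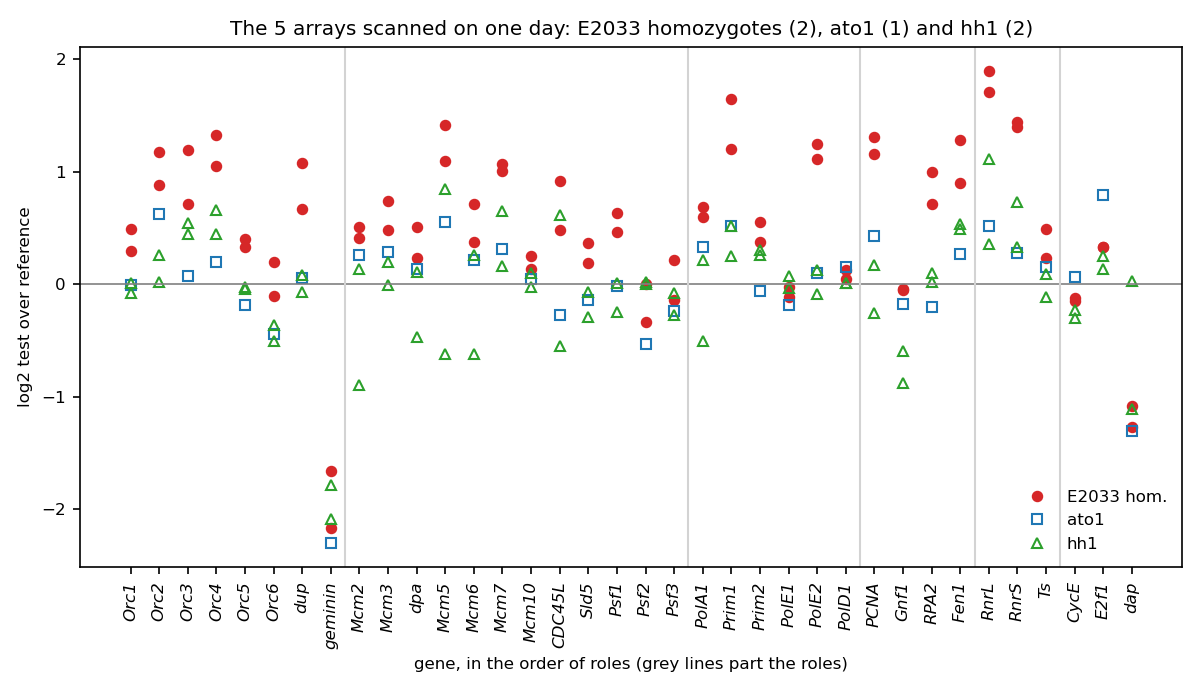
Log2 test over reference of each of the 36 genes (x axis, by role) on the 5 arrays scanned on a shared day, with filled circles for the 2 E(roDom)2033 homozygote arrays, squares for ato1 and triangles for hh1. Both circles lie above all other symbols for 27 genes, while geminin is near -2 in all 5 arrays and dap is low in 4 of them.

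The call count in E(roDom)2033 homozygotes rested on replicate 1 in particular: without it 7 genes were called (Orc2, Psf1, PolE2, Fen1, RnrL, RnrS and dap), against 3.95% of all probes. Without replicate 2 there were 21, against 14.2%, and without replicate 3 there were 15, against 5.47%. With the day as a fixed block 5 members were called, 4 of them among the 23 (Orc2, PolE2, RnrS and dap), against 7.03% of all probes. Without the 5 arrays of the day, which leaves replicate 2 alone, no member was called, against 1.27% of all probes. With the 2 arrays of conflicting zygosity left out, so that replicate 1 stood alone, 10 were called, against 3.94%. A lone array is assumed to vary like the other groups, so these last counts carry no spread of the homozygotes themselves.

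Set against E(roDom)2033 heterozygotes directly, a comparison added after the values were seen, homozygotes were higher for 2 of the 36 genes and lower for 0, where 0.497% of probes were higher and 0.667% lower. The 2 genes were Orc3 (1.09 ± 0.20, adjusted p = 0.0102) and RnrS (1.14 ± 0.27, adjusted p = 0.0376). RnrS read 0.02 and 0.31 in the heterozygotes, below all 3 homozygotes, and Orc3 read -0.21 and -0.49 there against 1.19, 0.19 and 0.72. Both calls were lost without homozygote replicate 1 or heterozygote replicate 1, that of RnrS also without homozygote replicate 3, and without heterozygote replicate 2 the count was 4. The median difference over the 36 genes was 0.38. The 2 groups shared no day of scanning.

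Against the mean of the 3 other stop-furrow groups, likewise added, E(roDom)2033 homozygotes were higher for 8 of the 36 genes and lower for 0, beside 1.55% and 0.722% of probes. These were RnrL (1.37 ± 0.35), Prim1 (1.11 ± 0.23), RnrS (1.00 ± 0.20), PolE2 (0.88 ± 0.21), dup (0.83 ± 0.17), Orc4 (0.80 ± 0.20), Orc3 (0.75 ± 0.15) and Psf1 (0.40 ± 0.09). The median difference was 0.40. Without homozygote replicate 1 no gene was called, without replicate 3 the count was 1, and without roDom homozygote replicate 1 it was 5.

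In the other 8 conditions fewer of the 36 genes differed from the reference, with the most, 8, in roX63. Posterior fragments had 0 higher and 1 lower (percentages of all probes 2.75% and 1.97%), the GINS subunit Psf2 at -0.41 ± 0.11. Its arrays read -0.49, -0.61, -0.35 and -0.49, all below 0, and without posterior replicate 1, 2 or 4 the adjusted p was 0.0728, 0.106 and 0.349. In roDom homozygotes 0 were higher and 1 was lower (1.3% and 2.4%), dap at -0.94 ± 0.24, with array values of -0.80, -1.07 and -0.82. In hh1 1 was higher and 0 lower (3.07% and 2.87%), RnrS at 0.63 ± 0.15, with array values of 0.67, 0.73, 0.87 and 0.33. The hh1 call was lost without replicate 2 or 3, and the roDom call without any of its 3 arrays.

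In ato1 2 genes were higher and 1 was lower (4.3% and 6.39% of probes). Orc2 read 0.94, 0.62 and 0.85 (0.81 ± 0.17, adjusted p = 0.00291) and dap -1.18, -1.30 and -1.67 (-1.43 ± 0.24, adjusted p = 0.000402). Both kept their calls in every alternative run. The other Orc2 probes read 0.70 (adjusted p = 0.00216) and 0.19 (adjusted p = 0.132) in ato1. Fen1 (0.63 ± 0.18, adjusted p = 0.0257) lost its call without ato1 replicate 1 or 3.

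In the extra-R8 mutants genes of several roles were higher. In roX63 8 were higher and 0 lower (6.13% and 7.4% of probes): PolE2 (1.03 ± 0.18), Orc2 (0.89 ± 0.17), Mcm2 (0.71 ± 0.22), CDC45L (0.60 ± 0.19), RPA2 (0.48 ± 0.15), Sld5 (0.47 ± 0.13), dpa (0.40 ± 0.13) and Psf1 (0.29 ± 0.07). In Su(roDom)519 4 were higher and 0 lower (2.56% and 2.15%): PCNA (0.80 ± 0.18), Psf1 (0.47 ± 0.07), Sld5 (0.47 ± 0.13) and Ts (0.46 ± 0.12). PolE2 and Orc2 in roX63 and Psf1 in Su(roDom)519 kept their calls without any single array. The other Orc2 probes read 0.85 (adjusted p = 0.000447) and 0.06 (adjusted p = 0.75) in roX63. With the day as a fixed block 0 of the 8 calls in roX63 and 0 of the 4 in Su(roDom)519 were kept, and with the day as a random block 3 of each. Markers of other tissues moved with roX63: 3 of 6 muscle genes were higher and 0 lower, 2 of 7 fat body genes were higher and 0 lower, and 0 of 6 glial genes were higher and 2 lower. The median of the muscle genes was 1.05, 2.14 and 0.95 on the 3 roX63 arrays, and their part in the result was not tested. The array values of PCNA were 0.80, 1.13 and 0.42 in Su(roDom)519 against 0.04, 0.02 and 0.03 in roX63. The groups did not overlap, and this difference was not tested.

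In the heterozygotes, with 2 arrays each, roDom had 2 genes higher and 0 lower (1.93% and 3.56% of probes), E2f1 at 0.67 ± 0.14 and Psf1 at 0.39 ± 0.09. Each call was lost without either array. E(roDom)2033 had 3 higher and 0 lower (2.75% and 2.44%), Mcm3 at 0.80 ± 0.16, Orc5 at 0.61 ± 0.13 and Psf1 at 0.45 ± 0.09. Mcm3 read 1.31 and 0.30 on the 2 arrays, and without the first its value was 0.25. Over the 9 conditions there were 46 calls, 29 without E(roDom)2033 homozygote replicate 1. By its brightest probe Psf1 was called in 5 conditions, the most of any member, always as higher. The Psf1 probe of middle brightness was called in the same 5 conditions. Its dimmest probe was called only in E(roDom)2033 homozygotes. That probe had adjusted p of 0.249 in roDom heterozygotes, 0.274 in E(roDom)2033 heterozygotes, 0.0623 in roX63 and 0.0512 in Su(roDom)519. Orc6, Mcm6, Mcm7, Mcm10, Psf3, PolE1, PolD1, Gnf1 and CycE were called in none.

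Posterior fragments, which lie behind the furrow, were then compared with the stop-furrow discs to set differentiating tissue against discs in which differentiation stalls. Of the 36 genes 1 was higher and 6 were lower, where 4.97% of all probes were higher and 3% lower. The median difference was -0.17, and that of all probes was -0.01. The stop-furrow mean weighted its groups equally, and their fitted medians against the reference differed. They were 0.44 in E(roDom)2033 homozygotes, -0.07 in roDom homozygotes, 0.10 in ato1 and 0.03 in hh1, beside -0.09 in posterior fragments. How far the difference rested on E(roDom)2033 homozygotes was not tested. The same mean was used for extra-R8 discs below. The lower genes were PolE2 (-0.92 ± 0.18, adjusted p = 0.00191), RnrS (-0.75 ± 0.17, adjusted p = 0.0063), Orc2 (-0.69 ± 0.17, adjusted p = 0.00974), PCNA (-0.64 ± 0.18, adjusted p = 0.0321), Psf2 (-0.48 ± 0.12, adjusted p = 0.0149) and Sld5 (-0.42 ± 0.13, adjusted p = 0.0499). The higher gene was dap (0.90 ± 0.24, adjusted p = 0.019). The other Orc2 probes read -0.50 (adjusted p = 0.0281) and -0.03 (adjusted p = 0.902). Here 9 of the 16 photoreceptor and neuronal markers were higher, so tissue makeup moved with the result, and its part in it was not tested. In such bulk samples fewer cells of a type and less RNA per cell cannot be told apart.

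The weak posterior replicate 1 was the lowest posterior array for 4 of those 6 lower genes, PolE2, RnrS, Orc2 and PCNA. PolE2 read -1.11 there and -0.39, 0.12 and -0.65 on the other 3 arrays, Orc2 -0.96 against 0.03, 0.26 and -0.21, and RnrS -0.76 against -0.19, 0.32 and -0.04. Psf2 was low on all 4 arrays. Without replicate 1, PolE2, Psf2, RnrS and dap kept their calls, Orc2 (-0.45, adjusted p = 0.0633), PCNA (-0.50, adjusted p = 0.153) and Sld5 (-0.43, adjusted p = 0.0983) lost theirs, and the median difference was -0.12. The count was 3 without posterior replicate 2 or without replicate 4.

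For dap, which was called as higher, the same array was also the lowest posterior array. This gene read -1.33 on posterior replicate 1 and 0.54, 0.64 and -0.04 on the others. Posterior replicates 1 and 4 thus lay within the range of the stop-furrow arrays. The stop-furrow arrays lay between -1.67 and -0.80 in roDom, E(roDom)2033 and ato1, whereas hh1 read -0.18, 0.02, -0.17 and -1.11. The call of dap was lost without posterior replicate 2 (0.73, adjusted p = 0.116), 3 (0.69, adjusted p = 0.125) or 4 (0.81, adjusted p = 0.119). On the single day that held both kinds of tissue, with 3 posterior arrays and ato1 replicate 1, the posterior arrays lay below the ato1 array for 19 of the 36 genes and above it for 4, where 26.7% of probes lay below and 27.9% above. Orc2 (-0.91), RnrS (-0.76), PCNA (-0.62), Sld5 (-0.56) and Psf2 (-0.19) were among the 19, dap (1.56) among the 4, and PolE2 (-0.34) overlapped.

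**Figure D4:**
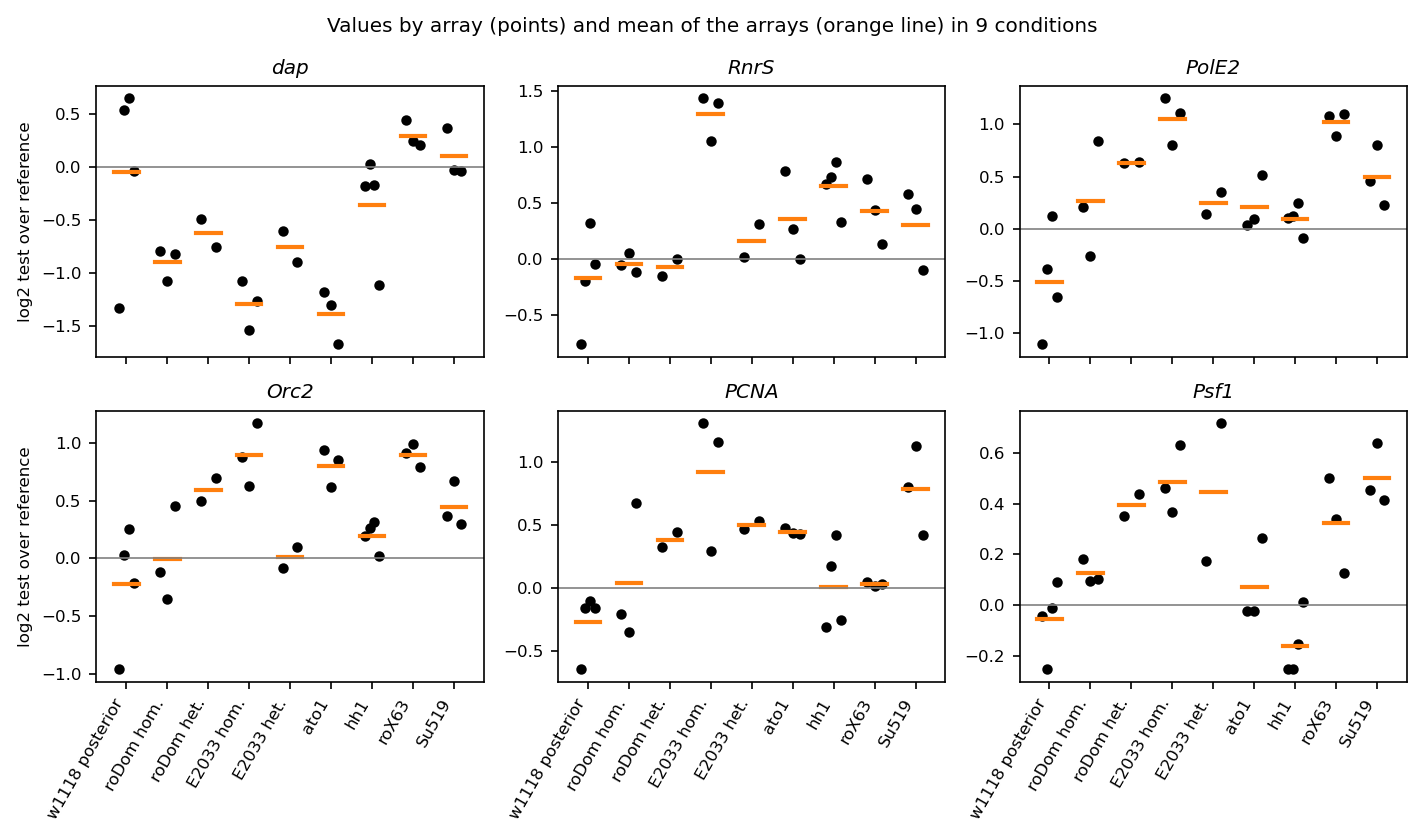
Log2 test over reference of dap, RnrS, PolE2, Orc2, PCNA and Psf1 by array (points) in the 9 conditions, with the mean of the arrays (orange line). RnrS lies above 1 in E(roDom)2033 homozygotes alone, dap is above -0.1 on the roX63 and Su(roDom)519 arrays and below -0.4 on all roDom, E(roDom)2033 and ato1 arrays, and PCNA is near 0.03 on the 3 roX63 arrays.

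Extra-R8 discs against stop-furrow discs set discs with extra photoreceptors against stalled ones. Of the 36 genes 2 were higher and 0 lower, where 4.4% of probes were higher and 3.69% lower, with a median difference of 0.10. The larger was dap at 1.26 ± 0.21 (adjusted p = 0.000879), with roX63 arrays at 0.44, 0.24 and 0.20 and Su(roDom)519 arrays at 0.36, -0.03 and -0.04. Only hh1 replicate 2 (0.02) of the 13 stop-furrow arrays reached into that range. The call of dap was kept in all alternatives, and in the day that held 2 extra-R8 and 2 stop-furrow arrays its difference was 1.35 without overlap. Psf1 was higher by 0.23 ± 0.06 (adjusted p = 0.0335), a call lost without 6 arrays left out in turn. The other Psf1 probes read 0.27 (adjusted p = 0.0243) and 0.20 (adjusted p = 0.286). In that day 18 of the 36 genes lay above the stop-furrow arrays and 2 below without overlap, beside 23.7% and 19.8% of probes, and the median difference was 0.30.

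Leaving out roDom homozygote replicate 1, E(roDom)2033 homozygote replicate 2, roX63 replicate 1 or Su(roDom)519 replicate 1 or 2 gave a count of 1 in this comparison, and leaving out ato1 replicate 3 gave 5. Photoreceptor markers moved with this comparison as well, with 6 of 16 higher and 0 lower, beside 4.4% and 3.69% of probes. Their part in it was not tested.

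Posterior fragments against extra-R8 discs gave 0 higher and 8 lower of the 36 genes, beside 4.49% and 3.38% of probes. They were PolE2 (-1.28 ± 0.21, adjusted p = 0.000658), Mcm2 (-0.88 ± 0.26, adjusted p = 0.0395), Orc2 (-0.88 ± 0.19, adjusted p = 0.00658), PCNA (-0.73 ± 0.21, adjusted p = 0.0378), Sld5 (-0.73 ± 0.15, adjusted p = 0.00464), Psf2 (-0.64 ± 0.14, adjusted p = 0.00752), RPA2 (-0.55 ± 0.17, adjusted p = 0.0499) and Psf1 (-0.38 ± 0.08, adjusted p = 0.00729). The median difference was -0.31. Here 5 of the 16 photoreceptor and neuronal markers were higher and 0 lower, and 2 of 6 glial genes were higher and 1 lower, and their part in the result was not tested. This comparison shares the posterior arrays with the first of the group differences and the extra-R8 arrays with the second, so their values stand side by side and are not independent.

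Without posterior replicate 1 the count was 5, and Mcm2 (-0.58, adjusted p = 0.13), PCNA (-0.60, adjusted p = 0.117) and RPA2 (-0.40, adjusted p = 0.171) were lost. It was 5 without posterior replicate 2, roX63 replicate 1 or 2, Su(roDom)519 replicate 2 or roDom homozygote replicate 1, and 4 without posterior replicate 4. PolE2, Orc2 and Psf1 kept their calls without any single array. The other Orc2 probes read -0.67 (adjusted p = 0.0126) and -0.01 (adjusted p = 0.974). The other Psf1 probes read -0.61 (adjusted p = 0.000551) and -0.36 (adjusted p = 0.126). No day of scanning held both kinds of tissue. With the day as a fixed block the comparison rested on ato1 replicate 1, which shared a day with posterior arrays. In that fit 0 of the 8 calls were kept, where 2.81% of all probes were called. The day and the tissue are thus poorly separated here.

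**Figure D5:**
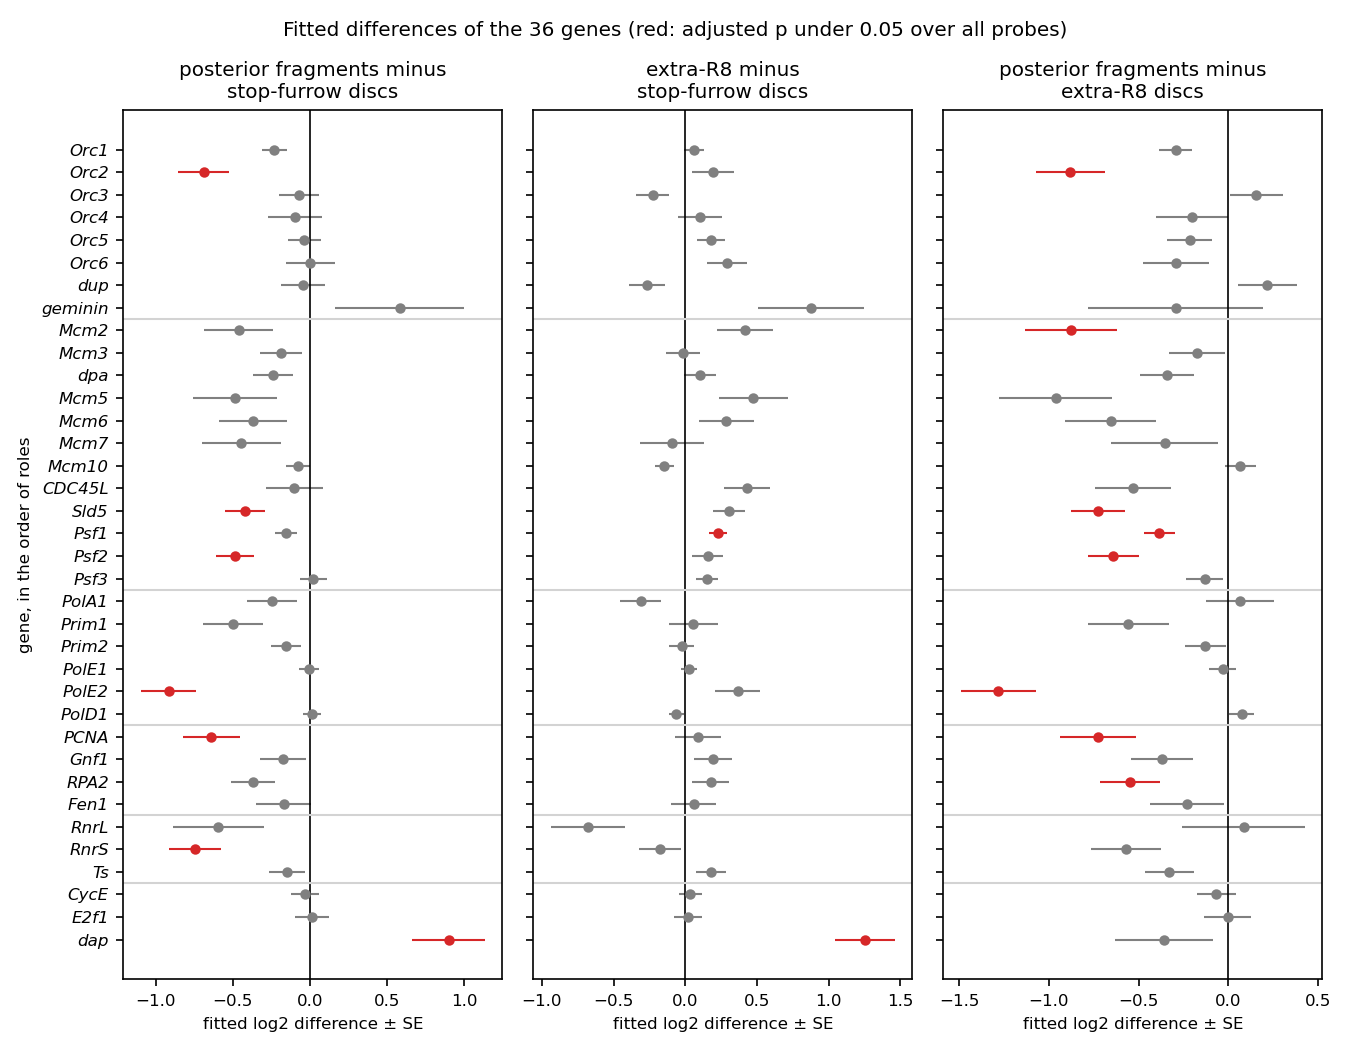
Fitted log2 difference with its standard error (bar) of each of the 36 genes, by role, in posterior fragments minus stop-furrow discs, extra-R8 minus stop-furrow discs and posterior fragments minus extra-R8 discs; red marks an adjusted p under 0.05. Most points lie below 0 in the first and last panels (30 of 36 in each), and dap stands out to the right in the first and second.

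The subunits of the GINS complex had different values across conditions, a difference that was not tested. Psf1 read -0.04, -0.25, -0.01 and 0.09 in posterior fragments, 0.18, 0.10 and 0.10 in roDom homozygotes, 0.46, 0.37 and 0.63 in E(roDom)2033 homozygotes, -0.02, -0.02 and 0.26 in ato1 and -0.25, -0.25, -0.15 and 0.01 in hh1. It read 0.50, 0.34 and 0.13 in roX63, 0.45, 0.64 and 0.41 in Su(roDom)519, 0.35 and 0.44 in roDom heterozygotes and 0.18 and 0.72 in E(roDom)2033 heterozygotes. The hh1 arrays lay below all arrays of both extra-R8 mutants, of both heterozygotes and of E(roDom)2033 homozygotes. Psf2 instead was low in posterior fragments, and in the mutants it ranged from -0.54 (ato1 replicate 2) to 0.59 (roDom heterozygote replicate 2), with roDom homozygotes at 0.42, 0.10 and 0.02 and hh1 at 0.55, 0.02, 0.38 and 0.00. Psf3 passed in no comparison.

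Of the origin recognition complex, Orc2 and Orc3 were called across conditions with the smallest p. Orc2 read -0.12, -0.35 and 0.46 in roDom homozygotes, 0.88, 0.63 and 1.17 in E(roDom)2033 homozygotes, 0.20, 0.26, 0.31 and 0.02 in hh1, 0.91, 0.99 and 0.79 in roX63 and 0.36, 0.67 and 0.30 in Su(roDom)519. In heterozygotes it read 0.49 and 0.69 for roDom and -0.08 and 0.10 for E(roDom)2033. The E(roDom)2033 homozygotes, ato1, roX63 and the roDom heterozygotes each lay above all posterior and hh1 arrays. Orc3 read 0.03, 0.03, 0.24 and 0.33 in posterior fragments, -0.30, -0.27 and -0.15 in roDom homozygotes, 0.14, 0.07 and -0.25 in ato1, 0.11, 0.54, 0.25 and 0.45 in hh1, -0.19, -0.27 and 0.07 in roX63 and 0.28, 0.03 and -0.47 in Su(roDom)519. It read 0.47 and 0.23 in roDom heterozygotes. The roDom homozygotes lay below all posterior and hh1 arrays for Orc3, and the roX63 arrays of Orc3 lay within the range of the ato1 and Su(roDom)519 arrays together.

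Orc1 and Mcm3 were also called across conditions. Orc1 read -0.37, -0.20, -0.16 and -0.02 in posterior fragments, -0.06, -0.32 and -0.28 in roDom homozygotes, 0.49, 0.27 and 0.30 in E(roDom)2033 homozygotes, 0.21, 0.00 and 0.12 in ato1 and 0.38, 0.34 and 0.06 in roX63. The E(roDom)2033 homozygotes lay above all posterior, roDom homozygote and ato1 arrays. Mcm3 read 0.74, 0.51 and 0.48 in E(roDom)2033 homozygotes, -0.37, -0.21 and -0.16 in roDom homozygotes, 0.23, 0.28 and 0.29 in ato1 and 0.22, 0.20, -0.09 and -0.01 in hh1. The posterior arrays of Mcm3 lay between -0.25 and 0.24. The homozygotes lay above every other stop-furrow array, but below heterozygote replicate 1, the highest array at 1.31.

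The regulators gave mixed results. CycE, which encodes Cyclin E, had 27 array values between -0.30 and 0.17, did not differ across conditions (F test, adjusted p = 0.698) and passed in no comparison, nor did any of its 3 other probes across conditions. E2f1 read 0.77 and 0.58 in roDom heterozygotes and 0.11, 0.79 and 0.10 in ato1, where replicate 2 stood alone. Its 22 arrays in the other 7 conditions lay between -0.23 and 0.39, E(roDom)2033 homozygotes at 0.33, 0.16 and 0.33 among them. E2f1 did not pass across conditions.

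Genes of the same processes outside the set were counted for comparison. Of all probes, 7.31% were higher and 6.45% lower in E(roDom)2033 homozygotes. The shares were 4.97% and 3% in posterior fragments minus stop-furrow discs and 4.4% and 3.69% in extra-R8 minus stop-furrow discs. They were 4.49% and 3.38% in posterior fragments minus extra-R8 discs. A list of other replisome genes had 18 measured genes, but it counted tim, which is the circadian clock gene, beside timeout. In E(roDom)2033 homozygotes 7 of these 18 were higher and 1 was lower. In posterior fragments minus stop-furrow discs 0 passed. In extra-R8 minus stop-furrow discs 2 were higher, RPA3, the small subunit of the single-strand binding protein (0.95 ± 0.21), and Chrac-14 (0.65 ± 0.19). In posterior fragments minus extra-R8 discs 2 were lower, RPA3 (-0.92 ± 0.28) and the clamp loader subunit RfC38 (-0.71 ± 0.18). Of 10 genes of chromatin assembly and mismatch repair, 5 were higher in E(roDom)2033 homozygotes and 0 lower. In posterior fragments dUTPase, which keeps uracil out of DNA, and the histone chaperone asf1 were lower than in stop-furrow discs (-0.80 ± 0.14 and -0.60 ± 0.12) and than in extra-R8 discs (-0.89 ± 0.16 and -0.92 ± 0.14). In extra-R8 minus stop-furrow discs 1 of the 10 was higher and 1 lower.

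Of 18 other regulators of G1 and S phase, 2 were higher and 3 lower in E(roDom)2033 homozygotes, beside 7.31% and 6.45% of all probes. In ato1 0 were higher and 5 lower, beside 4.3% and 6.39%. The shares for the group differences are those given above. In posterior fragments minus stop-furrow discs 3 were higher and 0 lower: string (stg), the Cdc25 phosphatase that triggers mitosis (1.30 ± 0.22), Fzr, which activates the anaphase promoting complex in G1 (0.92 ± 0.14), and CycA (0.81 ± 0.21). In extra-R8 minus stop-furrow discs stg (1.33 ± 0.19) and CycD (0.84 ± 0.20) were higher, and Fzr (0.67 ± 0.16) was higher in posterior fragments minus extra-R8 discs. Of 24 mitosis genes, stg included, 1 was higher in the first of these differences (stg), 1 higher and 1 lower in the second (stg, and sub at -0.65 ± 0.19) and 1 lower in the third (feo at -0.82 ± 0.23). In E(roDom)2033 homozygotes 4 mitosis genes were higher and 1 was lower.

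Across the 27 arrays the 36 genes moved together in part. The median Pearson correlation over the 630 gene pairs was 0.32, beside -0.003 among every 10th probe of the array. It was 0.22 after each condition's mean was subtracted. Every 10th probe was taken without matching for brightness, and no value for those probes was taken after the subtraction. The arrays share their reference RNA, and subsets of them share the dye of the test RNA or the day of scanning. These correlations are a description. The closest pairs were Mcm5 with Mcm6, both subunits of the helicase ring (0.89), Mcm7 with RnrL (0.86), Mcm7 with Prim1 (0.86) and Orc2 with PolE2 (0.85). With condition means subtracted these 4 pairs had correlations from 0.84 to 0.92.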

How the data were processed

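The deposited scanner files hold, per the file headers, GenePix mean and background intensity of 17664 spots in 2 channels on each array. The headers also give, as deposited by the authors, a score per spot, negative for bad or missing spots, and the percent of saturated pixels. Spots with a score of -75 or below were left out, and no member was saturated. Background was corrected by normexp (offset 50), each array was normalised by loess (span 0.3, 1174 control spots given no weight), and log2 ratios were turned to test over reference by the dyes in the labels; spots of a probe were averaged. The authors' deposited value table, in log2 per its values, runs reference over test and served as an alternative, without hh1 replicate 2, whose column mirrors that of Su(roDom)519 replicate 3 in 10353 of 10353 values. Its centring is not given in the sources used here. A linear model with 9 condition means and a dye term was fitted with variances moderated by limma 3.58.1 (R 4.3.3) and tested on simulated data. Members, lists and comparisons were chosen with earlier results of these data known. The rule named all called members, or the 10 with the largest change, and gave array values or ranges for 12 members chosen by p across conditions or by name. Further names in E(roDom)2033 homozygotes and across conditions, and the array values of RnrL, Prim1, Fen1, Orc4, Mcm5 and geminin, were added after their values were seen. A probe was above background where its signal exceeded the local background by 2 SDs. The number of arrays limits the precision. The reference counted as 1 control sample, so tests against it leave out its own spread. No sequence is shown, as none was used here. One result for a gene outside the set is not reported here.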

Additional observations from a re-analysis of the deposited data

Results flagged for a closer look

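In conditions of 4 arrays, posterior fragments and hh1, each of the 36 genes and their median were checked for an array far from the other 3 (74 checks), and 8 stood apart, all of them single genes, where chance gives about 1 in 20. In posterior fragments these were Mcm2 (-1.08 on replicate 1, others 0.04 to 0.21), PCNA (-0.65 on replicate 1, others -0.16 to -0.10), geminin (0.11 on replicate 4, others -0.22 to -0.20), Sld5 (-0.13 on replicate 3, others -0.41 to -0.39) and CycE (0.12 on replicate 2, others -0.19 to -0.15). In hh1 they were Mcm2 (-0.90 on replicate 4, others 0.14 to 0.25), Prim2 (-0.34 on replicate 3, others 0.24 to 0.30) and Orc5 (0.10 on replicate 1, others -0.04 to -0.02).

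E(roDom)2033 homozygotes differed from other groups by a direct test. Against the 3 other stop-furrow groups the differences were 0.75 for Orc3, 0.80 for Orc4, 0.83 for dup, 0.40 for Psf1, 1.11 for Prim1, 0.88 for PolE2, 1.37 for RnrL and 1.00 for RnrS, and against their heterozygotes 1.09 for Orc3 and 1.14 for RnrS.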

How the results depend on the processing

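Counts of called genes moved with the day of scanning and with E(roDom)2033 homozygote replicate 1, and no called gene turned its direction in any alternative run. Across conditions (13) the count was 7 with the 7th array series alone, 5 with the day as a fixed block, 5 without the 5 arrays of the shared day, and 8 to 17 leaving out 1 array. Against the reference (46) it was 10 with the day fixed, 30 without the arrays of conflicting labels, 23 without the 5 arrays, and 29 to 52 leaving out 1 array. In posterior minus stop-furrow (7) it was 4 with the 7th series, the random day block, without the 5 arrays or with only the groups compared, 1 with the day fixed, and 3 to 7 leaving out 1 array. In extra-R8 minus stop-furrow (2) it was 1 without background subtraction, with the 7th series, either day block, or without the conflicting or the 5 arrays, and 1 to 5 leaving out 1 array. In posterior minus extra-R8 (8) it was 5 with the 7th series or without the 5 arrays, 0 with the day fixed, 4 with the day random, and 4 to 8 leaving out 1 array. In E(roDom)2033 homozygotes against the reference (23) it was 15 with scale normalization, 14 with the deposited table, which tests 23 of the 36 genes and kept 14 of 15 testable calls, 5 with the day fixed, 10 without the conflicting arrays, 0 without the 5 arrays, and 7 to 24 leaving out 1 array. Against heterozygotes (2) it was 1 without background subtraction, with scale normalization, with every negative score left out, with the day random or without the conflicting arrays, 0 with the deposited table (1 of the 2 calls testable), the day fixed, without the 5 arrays or with only the groups compared, and 0 to 4 leaving out 1 array. Against the other stop-furrow groups (8) it was 3 with scale normalization or without the conflicting arrays, 2 with the 7th series, 5 with the deposited table (6 of the 8 calls testable), 0 with the day fixed or without the 5 arrays, 4 with only the groups compared, and 0 to 12 leaving out 1 array. The median in posterior minus stop-furrow (-0.17) was -0.39 with the deposited table, -0.46 with the day fixed and -0.26 to -0.12 leaving out 1 array, and that in extra-R8 minus stop-furrow (0.10) was 0.29 with the deposited table and 0.08 to 0.17 leaving out 1 array. Beside these counts, the share of all probes called with the day fixed was 11.7% across conditions. It was 3.25% in posterior minus stop-furrow, 2.6% in extra-R8 minus stop-furrow and 2.81% in posterior minus extra-R8. In E(roDom)2033 homozygotes it was 7.03% against the reference, 1.84% against heterozygotes and 2.05% against the other stop-furrow groups. With the day random the share was 5.67% in posterior minus stop-furrow, 3.2% in extra-R8 minus stop-furrow and 2.93% in posterior minus extra-R8. For E(roDom)2033 homozygotes against the reference it was 8% with scale normalization and 23% with the deposited table. Against the other stop-furrow groups these 2 settings gave 1% and 3.88%. Fewer arrays enter the fits that leave arrays out, and fewer genes those of the deposited table. The cause of the other changes was not tested. Of 73 calls, 73 were kept with dim probes left out or probes averaged, 65 with print-tip loess and 62 with no dye term. The run without the 5 arrays, the count in E(roDom)2033 homozygotes and their comparisons with heterozygotes and the other stop-furrow groups were added after seeing the data. The fit of only the groups compared was not run against the reference. No paired analysis was possible because the labels give no replicate numbers, and those used here follow the order of deposit.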
